A study of Mus musculus with 24 samples.

Results

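The genes described here are 9 genes by which erythroid cells take up iron and move iron, glycine and heme precursors into and out of the mitochondrion: Tfrc, Tfr2, Slc11a2, Steap3, Slc25a37, Slc25a38, Abcb6, Abcb10 and Flvcr1. They were chosen by gene symbol, and each matched 1 Ensembl gene, so that they make up 9 of the 54752 genes in the table. All 9 were among the 12373 genes tested, which had a TPM (a transcript's share of all transcripts in its library, corrected for length and scaled to a fixed sum) above 1 in at least 1 of 24 libraries.

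RNA was sequenced from cryopreserved bone marrow cells of 24 male mice on a C57BL/6 background, with a library per mouse and 6 mice in each group. GC-WT and GC-KO mice were wild-type and Nrf2-KO mice kept on the ground, and FL-WT and FL-KO mice were wild-type and Nrf2-KO mice that stayed in space for 31 days and were sampled 2 days after landing. Flight mice were 8 weeks old when they were moved to the launch site, and ground mice were housed in Japan to match the flight. By the paper's account, flight and ground mice could not be sampled in the same place. Flight and the place of sampling therefore cannot be told apart in any comparison of flight with ground. Nrf2 is a transcription factor that switches on genes against oxidative stress, and no cell type or promoter that would limit the knockout is given in the sources used here. Its gene, Nfe2l2, averaged 21.3 ± 3.19 TPM on the ground and 18.6 ± 5.93 TPM after flight in wild-type mice, against 4.97 ± 1.25 TPM in GC-KO and 3.07 ± 0.794 TPM in FL-KO mice (mean ± SD, n = 6 in every group here and below), with no overlap between KO and WT mice. The table gives no read totals, so how deeply a library was read is unknown. In each library 5 small RNAs (Rmrp, Rpph1, Rn7sk, Rn7s1 and Rn7s2) took 35.4% to 59.6% of the TPM, and the levels of all other genes are shares of what remained.

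Erythroblasts make hemoglobin and need more iron than any other cell of the bone marrow. Iron bound to transferrin enters with transferrin receptor 1 (Tfrc), is reduced in the endosome by Steap3 and leaves it through Slc11a2 (DMT1), while Tfr2, a related receptor, takes part in the sensing of iron and of erythropoietin. Slc25a37 (mitoferrin 1) then carries iron across the inner mitochondrial membrane, Slc25a38 brings in glycine for the first step of heme synthesis, Abcb10 sits beside mitoferrin 1 in the inner membrane, Abcb6 moves porphyrins, and Flvcr1 exports heme.

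The genes lie on 7 chromosomes of GRCm38. Tfrc is at chromosome 16, 32608920 to 32632794, and Tfr2 at chromosome 5, 137569840 to 137587481. Slc11a2 is at chromosome 15, 100387898 to 100425072. Steap3 (120190757 to 120272705), Abcb6 (75171717 to 75180392) and Flvcr1 (191005847 to 191026158) share chromosome 1. Slc25a37 is at chromosome 14, 69241848 to 69285112, Slc25a38 at chromosome 9, 120110374 to 120124504, and Abcb10 at chromosome 8, 123952459 to 123983122. No gene that overlaps a member exceeded 1.51 TPM in any library, except Gm20236 within Slc25a37 on the same strand, with at most 15.9 TPM.

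The 250 bases before the transcription start were read for the 7 members that have a promoter window in RefSeq (GRCm38.p6), and 5 of them are shown because the results below turn on these genes: Tfrc and Abcb10 fell with flight, Steap3 was lower in Nrf2-KO mice, Flvcr1 did not pass the test in flight, and Slc25a38 shares a motif with Flvcr1. They run 5′ to 3′ along the gene, at chr16:32608646-32608895 on the + strand (Tfrc), chr1:120271081-120271330 on the - strand (Steap3), chr9:120110132-120110381 on the + strand (Slc25a38), chr8:123983123-123983372 on the - strand (Abcb10) and chr1:191026191-191026440 on the - strand (Flvcr1). Capitals mark matches on either strand to AGATAA or TGATAA (letters bound by GATA factors), CCNCNCCC (KLF factors), TGACNNNGC (the antioxidant response element bound by Nrf2) and TGANTCA (NF-E2 and AP-1), and matches that overlap run together.
Tfrc: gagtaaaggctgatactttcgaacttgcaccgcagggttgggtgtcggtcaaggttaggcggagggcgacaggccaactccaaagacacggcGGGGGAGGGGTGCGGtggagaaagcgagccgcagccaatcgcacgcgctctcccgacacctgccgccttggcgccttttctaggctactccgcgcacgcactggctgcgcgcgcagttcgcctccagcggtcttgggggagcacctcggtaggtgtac
Steap3: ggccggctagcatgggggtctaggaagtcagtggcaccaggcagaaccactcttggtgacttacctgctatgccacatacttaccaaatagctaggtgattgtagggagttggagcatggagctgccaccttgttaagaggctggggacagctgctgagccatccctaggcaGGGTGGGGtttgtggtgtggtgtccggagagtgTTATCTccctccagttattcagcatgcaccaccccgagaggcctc
Slc25a38: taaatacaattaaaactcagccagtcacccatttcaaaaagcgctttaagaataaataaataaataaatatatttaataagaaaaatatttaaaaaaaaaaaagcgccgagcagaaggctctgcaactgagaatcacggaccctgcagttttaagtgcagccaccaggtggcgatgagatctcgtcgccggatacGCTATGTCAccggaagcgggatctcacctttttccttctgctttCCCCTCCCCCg
Abcb10: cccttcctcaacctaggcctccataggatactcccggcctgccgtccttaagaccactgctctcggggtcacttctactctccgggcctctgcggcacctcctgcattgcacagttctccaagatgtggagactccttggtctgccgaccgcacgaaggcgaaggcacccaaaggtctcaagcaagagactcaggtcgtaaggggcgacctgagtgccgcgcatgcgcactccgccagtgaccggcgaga
Flvcr1: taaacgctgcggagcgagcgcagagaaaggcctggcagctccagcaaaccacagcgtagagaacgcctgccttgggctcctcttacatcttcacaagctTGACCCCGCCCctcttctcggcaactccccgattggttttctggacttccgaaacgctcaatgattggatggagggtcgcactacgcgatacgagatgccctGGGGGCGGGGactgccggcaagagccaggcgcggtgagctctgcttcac
CCNCNCCC was in 6 of the 7 windows, all but that of Abcb10, and in 45.9% of 32851 mouse promoter windows of the same length. TGACNNNGC was in those of Slc25a38 and Flvcr1 (10.2% of all windows), and AGATAA in that of Steap3 (9.99%). TGATAA (7.94%) and TGANTCA (6.75%) had no match in the 7 windows. These matches describe letters in a short window and not binding, and the start in RefSeq can differ from the outer end of the gene given above. Steap3 has 4 such windows, Tfr2 3 and Tfrc 2, and a single window was read for each gene.

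The 9 genes differed widely in level. On the TPM scale in GC-WT mice, Slc25a37 was the highest at 230.0 ± 65.6, followed by Tfrc at 88.6 ± 26.4, Abcb10 at 35.2 ± 6.63 and Slc25a38 at 17.9 ± 3.66. Slc11a2 (9.27 ± 1.67), Steap3 (8.78 ± 2.58) and Abcb6 (8.13 ± 1.66) lay close together, and Flvcr1 (4.18 ± 0.571) and Tfr2 (3.5 ± 1.25) were the lowest. The summed TPM of the 9 genes was 406 ± 101 on the ground and 184 ± 34.8 after flight in wild-type mice, and 383 ± 86.3 and 166 ± 33.6 in Nrf2-KO mice. Every flight mouse had a lower sum (129.76 to 227.28) than every ground mouse (251.63 to 536.96), in both genotypes. Slc25a37 and Tfrc made up most of the mean sum in each group, so the sum says little about the other members.

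**Figure D1:**
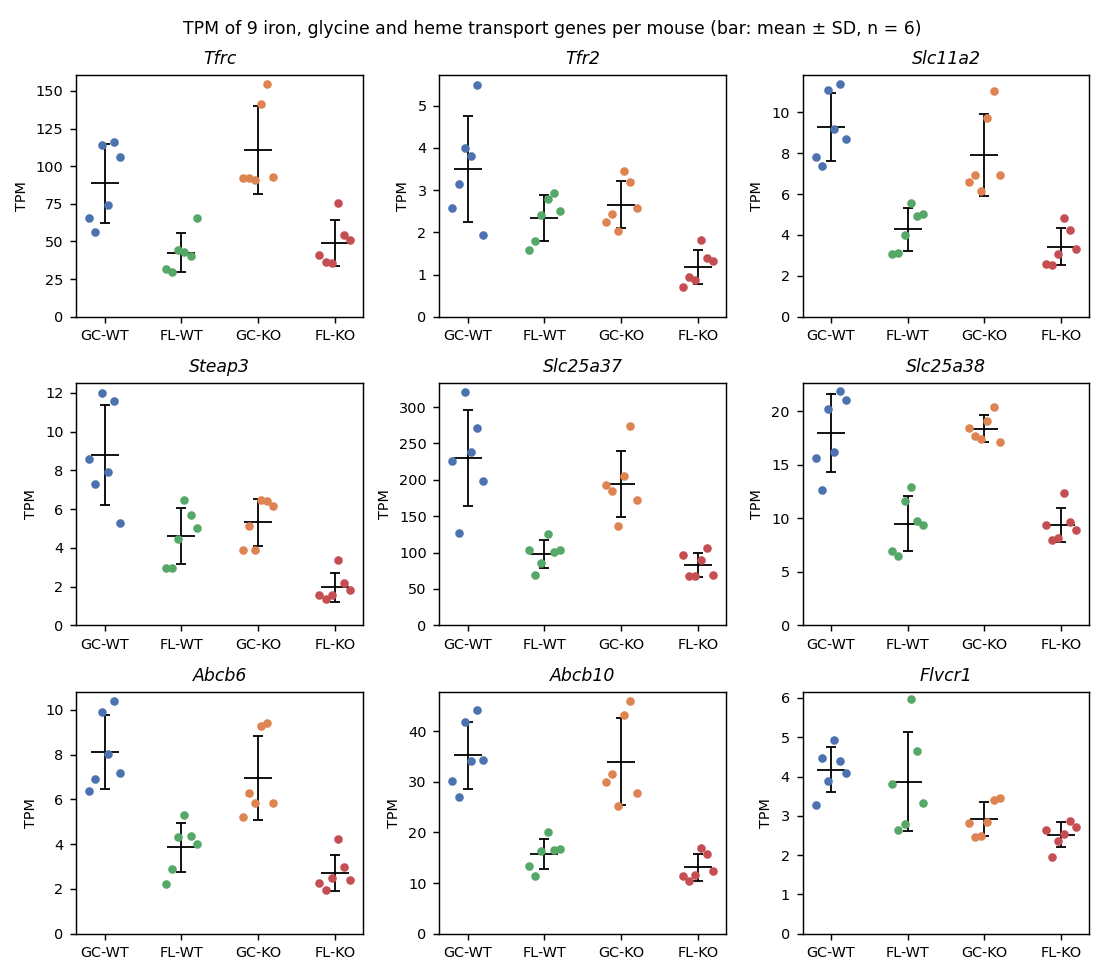
Level of each of the 9 genes in TPM (vertical axis, from 0) for each mouse (points) on the ground (GC) and after flight (FL) of both genotypes, with the mean and SD as bars (n = 6). Flight mice sit below ground mice for all genes but Flvcr1, whose groups overlap, and for Tfr2, Tfrc, Steap3 and Slc25a38, where a few wild-type mice overlap.

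To see how flight changed the uptake of iron at the endosome, FL-WT mice were compared with GC-WT mice, and FL-KO with GC-KO mice. Transcripts of all 4 uptake genes were lower after flight in both genotypes. Mean Tfrc, Slc11a2 and Steap3 fell to between 36.9% and 52.4% of the ground level, and Tfr2 to 66.8% in wild-type and 44.3% in Nrf2-KO mice. In whole bone marrow, fewer cells of a type and less RNA per cell cannot be told apart. By the paper's flow cytometry of frozen marrow, Ter119-negative erythroid progenitors were more frequent among live cells after flight in both genotypes. Erythroid cells positive for Ter119 survived freezing very poorly, by the same account. How these cells relate to the RNA levels was not tested. Changes below are log2 fold changes of TPM + 1 from limma, tested over all 12373 genes. A gene was called when its adjusted p was under 0.1 and its fold change at least 2, and it is said to have fallen or risen when the adjusted p alone was under 0.1.

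Tfrc ranged from 56.0 to 116 TPM (median 90.1) in GC-WT and from 29.4 to 65.5 (median 41.8) in FL-WT mice, and from 90.6 to 155 (median 92.7) in GC-KO and from 36.0 to 75.4 (median 46.0) in FL-KO mice. The wild-type groups overlapped through the lowest ground and the highest flight mice, whereas all FL-KO mice were below all GC-KO mice. Tfrc fell by 1.04 (SE 0.21, limma adjusted p = 0.00117) in wild-type and by 1.17 (SE 0.21, limma adjusted p = 0.000243) in Nrf2-KO mice, and was called in both. The call in wild-type mice was lost without GC-WT mouse 6, 8 or 10 or FL-WT mouse 3 or 5, where the change was between -0.97 and -0.94.

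Tfr2 was read at a few TPM only. It ranged from 1.94 to 5.50 TPM (median 3.49) in GC-WT and from 1.59 to 2.93 (median 2.47) in FL-WT mice, and from 2.02 to 3.45 (median 2.51) in GC-KO and from 0.70 to 1.81 (median 1.14) in FL-KO mice. Wild-type groups overlapped, and the Nrf2-KO groups did not. Tfr2 fell by 0.40 (SE 0.16, limma adjusted p = 0.0595) in wild-type and by 0.75 (SE 0.16, limma adjusted p = 0.00102) in Nrf2-KO mice. In wild-type mice the adjusted p was above 0.1 without any of 5 libraries (GC-WT mouse 6, 7 or 8, FL-WT mouse 3 or 5), where it reached up to 0.175. It was also above 0.1 after median-of-ratios scaling (limma adjusted p = 0.436), and when a trend with transcript GC content and length was fitted in every library and removed, Tfr2 passed in neither genotype (limma adjusted p = 0.606 and 0.199). With a pseudocount of 0.1 in place of 1, Tfr2 fell by 0.52 in wild-type mice (limma adjusted p = 0.0848). In Nrf2-KO mice it then fell by 1.15 (limma adjusted p = 0.000584) and was called.

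Steap3, the endosomal reductase, ranged from 5.28 to 11.97 TPM (median 8.27) in GC-WT and from 2.95 to 6.46 (median 4.75) in FL-WT mice. Its range was 3.86 to 6.47 (median 5.62) in GC-KO and 1.34 to 3.37 (median 1.68) in FL-KO mice, without overlap between these last groups. The fall was 0.80 in wild-type mice (SE 0.19, limma adjusted p = 0.0036) and 1.10 in Nrf2-KO mice (SE 0.19, limma adjusted p = 0.000129), and the latter was called.

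Slc11a2, the transporter out of the endosome, separated flight from ground in both genotypes. It ranged from 7.38 to 11.4 TPM (median 8.95) in GC-WT and from 3.08 to 5.58 (median 4.47) in FL-WT mice, and from 6.13 to 11.1 (median 6.93) in GC-KO and from 2.54 to 4.83 (median 3.20) in FL-KO mice. Slc11a2 fell in both genotypes, with log2 fold changes of -0.97 (SE 0.16, limma adjusted p = 0.000135) in wild-type and -1.002 (SE 0.16, limma adjusted p = 5.45e-05) in Nrf2-KO mice. Its fold change lay at the limit of 2: the call in Nrf2-KO mice was lost without GC-KO mouse 9 or 11, FL-KO mouse 1, 2 or 4, or the 5 small RNAs. In wild-type mice it was called without GC-WT mouse 3 or 5, FL-WT mouse 7, 8 or 10, or the 5 small RNAs, and with a pseudocount of 0.1.

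The mitochondrial genes were compared in the same way. The iron carrier Slc25a37 and its neighbour Abcb10 had the lowest log2 fold changes of TPM + 1 among the 9 genes in both genotypes, with means at 38.5% to 44.7% of the ground level. In Nrf2-KO mice the mean of Steap3 was lower still, at 36.9%, and with a pseudocount of 0.1 Steap3 had the lowest fold change there (-1.43). Abcb6 and Slc25a38 fell as well, to between 39.1% and 53.0%. Flvcr1, the heme exporter, did not pass the test.

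Slc25a37 was between 127 and 320.35 TPM (median 232) in GC-WT mice and between 69.0 and 125 (median 102) in FL-WT mice. In GC-KO mice it was between 137 and 274 (median 188), and in FL-KO mice between 67.8 and 107 (median 79.4). The groups did not overlap in either genotype. The fall was 1.20 in wild-type mice (SE 0.19, limma adjusted p = 8.86e-05) and 1.21 in Nrf2-KO mice (SE 0.19, limma adjusted p = 4.65e-05), and it was called in both and in each of 12 fits per genotype that left out a library.

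Abcb10 behaved alike. Its levels were 26.9 to 44.2 TPM (median 34.2) in GC-WT against 11.5 to 20.2 (median 16.4) in FL-WT mice, and 25.3 to 46.0 (median 30.7) in GC-KO against 10.47 to 17.0 (median 11.99) in FL-KO mice, with no overlap between flight and ground. Abcb10 fell in both genotypes, with log2 fold changes of -1.11 (SE 0.16, limma adjusted p = 5.1e-05) in wild-type and -1.297 (SE 0.16, limma adjusted p = 1.45e-05) in Nrf2-KO mice, and was called in both, also in every fit that left out a library.

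Abcb6, the porphyrin transporter, was at 6.37 to 10.4 TPM (median 7.61) in GC-WT and 2.23 to 5.29 (median 4.17) in FL-WT mice, and at 5.2 to 9.39 (median 6.06) in GC-KO and 1.97 to 4.23 (median 2.46) in FL-KO mice. Flight and ground mice did not overlap. It fell by 0.93 (SE 0.17, limma adjusted p = 0.000409) in wild-type and by 1.09 (SE 0.17, limma adjusted p = 4.79e-05) in Nrf2-KO mice, and was called in the latter. In wild-type mice it was called without FL-WT mouse 7, without the 5 small RNAs and with a pseudocount of 0.1.

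Slc25a38, the glycine carrier, was the steadiest member in GC-KO mice, with 17.1 to 20.4 TPM (median 18.1) and a coefficient of variation of 6.83%. FL-KO mice had 8.0 to 12.3 TPM (median 9.12), below every GC-KO mouse. In wild-type mice it ranged from 12.6 to 21.9 TPM (median 18.2) on the ground and from 6.44 to 12.9 (median 9.56) after flight, and the groups overlapped by 1 mouse each. The falls of 0.86 (SE 0.15, limma adjusted p = 0.000209) and 0.91 (SE 0.15, limma adjusted p = 6.98e-05) did not reach a fold of 2.

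Flvcr1 ranged from 3.27 to 4.94 TPM (median 4.25) in GC-WT and from 2.65 to 5.96 (median 3.57) in FL-WT mice, and from 2.46 to 3.46 (median 2.83) in GC-KO and from 1.96 to 2.87 (median 2.6) in FL-KO mice. Flight and ground overlapped in both genotypes. The log2 fold changes were -0.12 (SE 0.13, limma adjusted p = 0.484) and -0.15 (SE 0.13, limma adjusted p = 0.339), and 72.2% and 76.1% of tested genes had a lower value. Without FL-WT mouse 7 the limma adjusted p in wild-type mice was 0.0987.

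In FL-WT vs. GC-WT, 3 of the 9 genes were called lower (Tfrc, Slc25a37 and Abcb10) against 0.938% of all tested genes, and 8 fell at adjusted p under 0.1 against 39%. Flight and ground mice did not overlap for 4 of them (Slc11a2, Slc25a37, Abcb6 and Abcb10), as for 4.19% of tested genes. In FL-KO vs. GC-KO, 6 were called (all but Tfr2, Slc25a38 and Flvcr1) against 2.13%, 8 fell against 53.1%, and 8 did not overlap against 18.4%. The median log2 fold change of the 9 genes was -0.93 and -1.09, and that of all tested genes -0.24 and -0.29. Relative to all genes, the members' median was thus -0.68 in wild-type and -0.80 in Nrf2-KO mice.

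The shares of genes that fell and rose depended on how the libraries were scaled. At TPM as deposited, 39% of tested genes fell and 0.994% rose in wild-type mice, and 53.1% fell and 0.299% rose in Nrf2-KO mice. With median-of-ratios scaling, which sets the typical gene of each library to the same level, these shares were 15.9% and 17.4% in wild-type and 21.6% and 18.1% in Nrf2-KO mice. Of the members, 7 then fell in wild-type mice (all but Tfr2 and Flvcr1) and 8 in Nrf2-KO mice (all but Flvcr1), although none kept a fold of 2 (0.129% and 0.178% of tested genes did). Slc25a37 fell by 0.84 and 0.78, Abcb10 by 0.77 and 0.89, and Tfrc by 0.69 and 0.74 on this scale. Flvcr1 turned to higher values, by 0.15 in wild-type mice (SE 0.07, limma adjusted p = 0.121) and by 0.17 in Nrf2-KO mice (SE 0.07, limma adjusted p = 0.0583). The small RNAs took 46.1% to 59.3% of the TPM in FL-KO against 35.4% to 48.4% in GC-KO mice. With these RNAs left out, 4 members were called in Nrf2-KO mice (Steap3, Slc25a37, Abcb6 and Abcb10), and 5 in wild-type mice (Tfrc, Slc11a2, Slc25a37, Abcb6 and Abcb10).

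**Figure D2:**
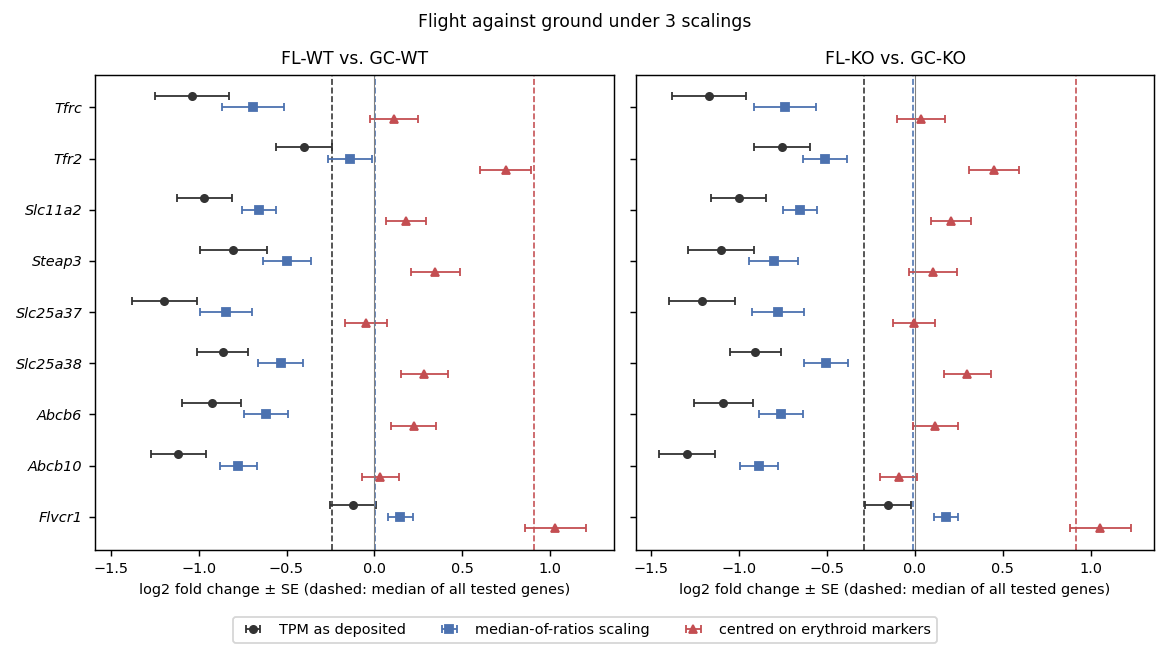
Log2 fold change of flight against ground (horizontal axis, points with SE) of each gene in wild-type (left) and Nrf2-KO mice (right) for TPM as deposited, after median-of-ratios scaling and centred on erythroid markers. Dashed lines mark the median of all tested genes at each scaling, and 8 members lie to the left of it, Tfr2 the nearest of them in wild-type mice, while Flvcr1 lies just to the right.

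A list of 12 erythroid genes, which holds neither the globins nor Alas2, moved with the members. Of these 12, among them the membrane and membrane skeleton genes Sptb, Ank1 and Slc4a1, 9 were called lower in each genotype and all 12 fell, with medians of -1.21 and -1.20. The globin genes and, in wild-type mice, Alas2 did not pass the test, as given below. Their summed TPM was 721.02 to 1527 in GC-WT and 351 to 602 in FL-WT mice, and 785 to 1512 in GC-KO and 359 to 572 in FL-KO mice. None was at 0 in all libraries. With values centred on the mean of these 12 genes, Slc25a37 changed by -0.05 (SE 0.12) in wild-type and by -0.01 (SE 0.12) in Nrf2-KO mice. Abcb10 differed by 0.03 (SE 0.11) and -0.09 (SE 0.11), and Tfrc by 0.11 (SE 0.14) and 0.04 (SE 0.14), so that these 3 genes differed from the erythroid markers by less than the SE. Tfr2 was higher than these markers by 0.75 (SE 0.14, limma adjusted p = 2.12e-05) in wild-type and by 0.45 (SE 0.14, limma adjusted p = 0.00406) in Nrf2-KO mice. At the few TPM of Tfr2 the added 1 shrinks a fold change. With a pseudocount of 0.1 the uncentred fall of Tfr2 was 1.15 in place of 0.75 in Nrf2-KO mice. In wild-type mice it was 0.52 in place of 0.40, and centring was not run with that pseudocount. Slc25a38 was higher than the markers in both genotypes (0.28 and 0.30, limma adjusted p = 0.0436 and 0.0364). Steap3 (0.35, limma adjusted p = 0.0186) was higher in wild-type mice. Abcb6 in wild-type mice (0.22, limma adjusted p = 0.0955) and Slc11a2 in Nrf2-KO mice (0.20, limma adjusted p = 0.0845) passed only narrowly. Their unadjusted limma p were 0.0933 and 0.0811, since the adjustment raises p little where most genes shift. Most tested genes rose more than these members on this scale, and 23.6% and 7.45% had a lower value than Tfr2. Flvcr1 was called higher, by 1.03 (SE 0.17) and 1.05 (SE 0.17), as were 32.2% and 34.1% of all tested genes, whose medians were 0.91 and 0.92. The part of a change in cell number in these results was not tested.

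Other iron and heme genes were counted to place the 9 transport genes. Of 8 enzymes of heme synthesis, 3 were called lower in wild-type and 5 in Nrf2-KO mice, and 7 and 8 fell, with medians of -0.98 and -1.03. The lowest was Cpox, which makes protoporphyrinogen, with changes of -1.14 (SE 0.20, limma adjusted p = 0.000346) and -1.45 (SE 0.20, limma adjusted p = 2.4e-05). The highest was Alas2, the first enzyme in erythroid cells, with -0.18 (SE 0.18, limma adjusted p = 0.45) and -0.47 (SE 0.18, limma adjusted p = 0.0428). Of 10 tested genes for other mitochondrial and heme transport, 6 and 9 fell and 1 was called in each genotype. That gene was Slc6a9, which brings glycine into the cell, with -1.31 (SE 0.18, limma adjusted p = 4.46e-05) and -1.45 (SE 0.18, limma adjusted p = 1.45e-05).

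The medians of the remaining iron lists are set beside those of all tested genes, -0.24 and -0.29. Of 9 tested genes of the transferrin route other than the members, 3 fell in wild-type and 8 in Nrf2-KO mice with none called, and their medians were -0.30 and -0.40. Mcoln1, an endosomal and lysosomal channel, was the lowest in wild-type mice at -0.56 (SE 0.14, limma adjusted p = 0.00447). For 11 genes of iron-sulfur cluster assembly, 4 and 7 fell, none was called, and the medians were -0.29 and -0.34. Glrx5 was the lowest of them in both genotypes, with -0.73 (SE 0.14, limma adjusted p = 0.000565) and -0.69 (SE 0.14, limma adjusted p = 0.00056). For 9 tested genes of iron storage, export and sensing, 1 and 6 fell, none was called, and the medians were -0.21 and -0.39. None of the 4 globin genes passed the test (medians 0.09 and -0.12), although 4 rose in wild-type and 1 in Nrf2-KO mice with median-of-ratios scaling. With that scaling 7 and 7 heme enzymes and 12 and 12 erythroid markers fell, as did 3 and 4 genes of other mitochondrial and heme transport with 1 and 1 higher. For the transferrin route 2 and 4 fell and 2 and 1 rose, for iron-sulfur assembly 1 and 1 fell and 1 and 1 rose, and for storage, export and sensing 1 and 1 fell and 3 and 2 rose.

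**Figure D3:**
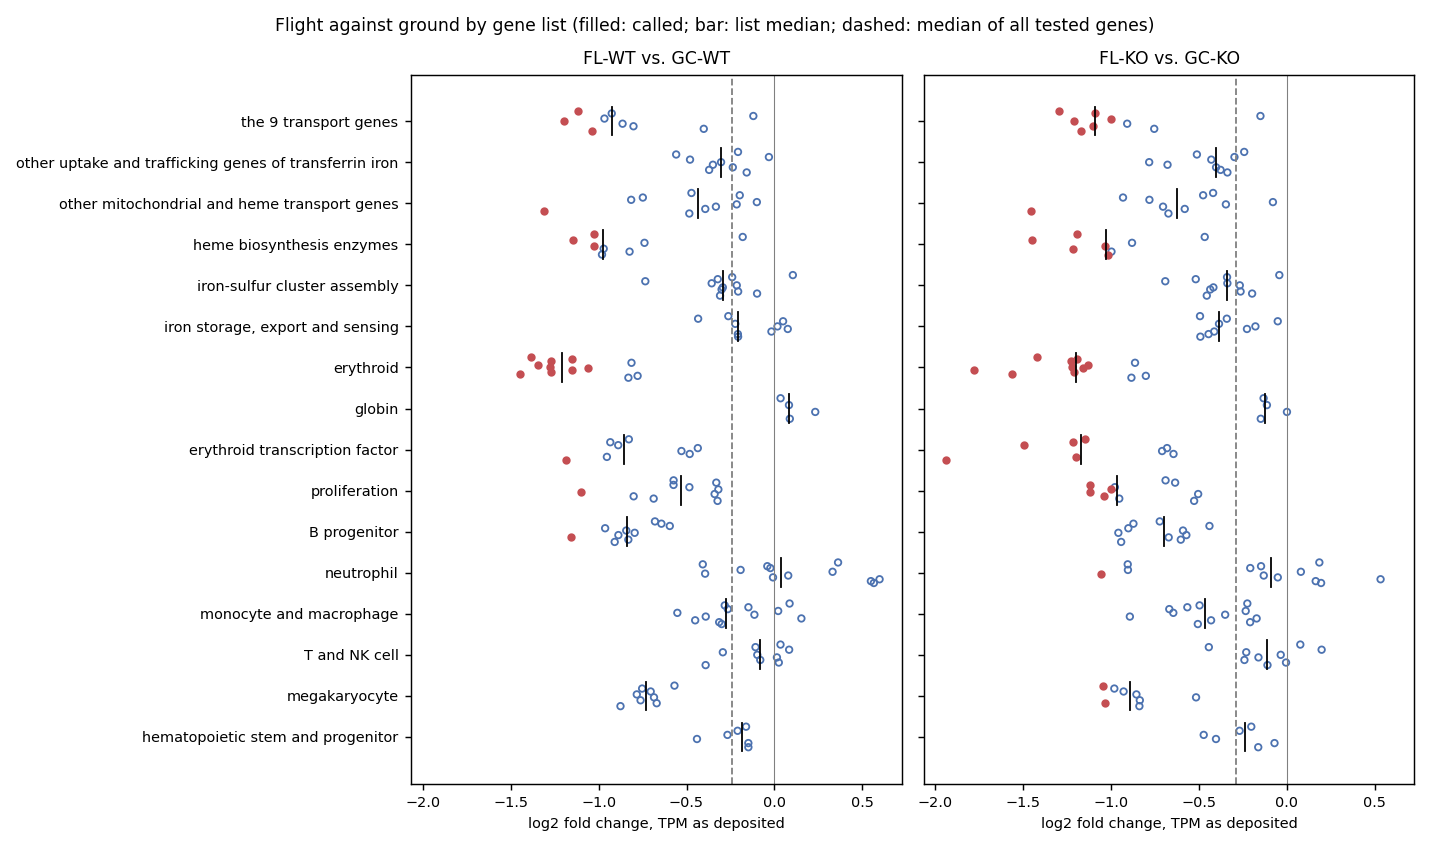
Log2 fold change of flight against ground (horizontal axis, TPM as deposited) for each gene (points, filled where called) of 16 lists in wild-type (left) and Nrf2-KO mice (right). Bars are list medians and the dashed line is the median of all tested genes. Lists to the left of it include the members, the heme enzymes, the erythroid genes and the erythroid transcription factors. The B progenitor, megakaryocyte and proliferation genes also lie to the left, and the globin and neutrophil genes to the right.

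The other lists were counted for flight in wild-type and Nrf2-KO mice in turn. Of 8 erythroid transcription factors 8 and 8 fell and 1 and 5 were called, and of 10 proliferation genes 8 and 10 fell and 1 and 4 were called. Of 10 B progenitor genes 10 and 10 fell and 1 and 0 were called, with summed TPM of 177 to 250.08 in GC-WT, 86.1 to 218 in FL-WT, 117 to 177 in GC-KO and 69.9 to 114 in FL-KO mice. Of 8 megakaryocyte genes 6 and 8 fell and 0 and 2 were called. Medians were -0.86 and -1.17 for the erythroid transcription factors and -0.53 and -0.97 for the proliferation genes. Those of the B progenitor genes were -0.84 and -0.70, and those of the megakaryocyte genes -0.73 and -0.89. Of 12 neutrophil genes 0 and 3 fell, 5 and 1 rose, and 0 and 1 were called. The counts that fell were 3 and 7 of 12 monocyte and macrophage genes, 1 and 1 of 9 T and NK cell genes, and 1 and 2 of 6 tested genes of stem and progenitor cells, with none called. With median-of-ratios scaling 8 and 8 neutrophil genes rose and 0 and 2 fell, and 0 and 3 monocyte and macrophage genes fell while 3 and 1 rose. Of the T and NK cell genes 0 and 0 fell and 4 and 4 rose, and of the stem and progenitor genes 0 and 1 fell and 0 and 1 rose. In the other lists none rose, and those that fell were 5 and 8 erythroid transcription factors, 4 and 7 proliferation genes, 8 and 7 B progenitor genes and 2 and 6 megakaryocyte genes. No gene of these lists was at 0 in all libraries.

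To see whether the loss of Nrf2 altered the same genes, KO mice were compared with wild-type mice on the ground and after flight. Steap3, Flvcr1 and, after flight, Tfr2 and Abcb6 were lower in Nrf2-KO mice, and Tfrc had higher means in KO mice without passing the test. On the ground and after flight, 15.7% and 10.3% of tested genes had lower values than Steap3, and 30.5% and 33.4% than Flvcr1. After flight, 21.6% had lower values than Tfr2 and 38.7% than Abcb6. By limma 0 members were called in GC-KO vs. GC-WT, where 3.04% of tested genes were called lower and 2 members had an unadjusted p under 0.05. In FL-KO vs. FL-WT 0 were called, against 8.36%, and 4 members had an unadjusted p under 0.05. At adjusted p under 0.1 alone, 2 members fell on the ground and 4 after flight, and 42.9% and 47.2% of all tested genes did. No member separated all KO from all WT mice, against 9.15% of genes on the ground and 20.6% after flight.

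Steap3 was at 60.6% of the wild-type mean on the ground and at 42.7% after flight. It fell by 0.61 (SE 0.19, limma adjusted p = 0.0119) in GC-KO and by 0.91 (SE 0.19, limma adjusted p = 0.000291) in FL-KO mice, and the latter passed a fold of 2 without FL-WT mouse 3 or 5 or FL-KO mouse 9. Flvcr1 fell by 0.40 (SE 0.13, limma adjusted p = 0.0163) and by 0.44 (SE 0.13, limma adjusted p = 0.00816). Tfr2 fell by 0.62 (SE 0.16, limma adjusted p = 0.00242) after flight and had a log2 fold change of -0.27 (SE 0.16, limma adjusted p = 0.196) on the ground. Abcb6 fell after flight by 0.37 (SE 0.17, limma adjusted p = 0.0739), a result lost without any of 8 libraries with adjusted p of up to 0.199 (FL-WT mouse 6, 7, 8 or 10, FL-KO mouse 1, 2, 4 or 12). Single libraries also brought other members past the test: Tfr2 on the ground without GC-WT mouse 10 (limma adjusted p = 0.0502), Slc25a37 on the ground without GC-WT mouse 5 (0.0855), Slc11a2 after flight without FL-WT mouse 5 (0.0973) or FL-KO mouse 9 (0.0886), and Abcb10 after flight without FL-WT mouse 5 (0.0868).

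Tfrc had means of 125% and 115% of wild type, with log2 fold changes of 0.34 (SE 0.21, limma adjusted p = 0.22) on the ground and 0.20 (SE 0.21, limma adjusted p = 0.482) after flight. These values were above those of 97.3% and 95.0% of tested genes, most of which were lower in KO mice. The medians of all genes were -0.22 and -0.25, and those of the members -0.22 and -0.25. Slc11a2, Slc25a37 and Abcb10 did not pass the test, with changes between -0.25 and -0.07, nor did Slc25a38 with 0.05 and 0.01.

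Scaling changed these calls. With median-of-ratios scaling, 27.9% of tested genes fell and 29.8% rose on the ground, in place of 42.9% and 3.13%, and 31.2% fell and 35.2% rose after flight, in place of 47.2% and 1.91%. Tfrc was then higher in KO mice by 0.69 (SE 0.18, limma adjusted p = 0.00304) on the ground and by 0.64 (SE 0.18, limma adjusted p = 0.00372) after flight. Slc25a38 rose by 0.39 (limma adjusted p = 0.0135) and 0.42 (limma adjusted p = 0.00703), and Abcb10 by 0.28 (limma adjusted p = 0.0328) on the ground. Steap3 fell by 0.30 (limma adjusted p = 0.0765) and 0.60 (limma adjusted p = 0.000745), and Tfr2 by 0.37 after flight (limma adjusted p = 0.0128). Flvcr1 and Abcb6 did not pass the test.

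The transcripts differ in base composition, with a GC content of 39.8% for Tfrc and 57.8% for Tfr2. After this trend was removed, Steap3 (-0.08 and -0.26), Flvcr1 (-0.14 and -0.14) and, after flight, Tfr2 (0.16) no longer fell in KO mice, with limma adjusted p of 0.677 and 0.11, 0.116 and 0.111, and 0.328. Tfrc rose by 0.45 on the ground (limma adjusted p = 0.0393) and was at 0.33 after flight (limma adjusted p = 0.106). Slc25a38 rose in KO mice by 0.42 and 0.55 (limma adjusted p = 0.0101 and 0.000961) and Abcb10 by 0.45 and 0.41 (limma adjusted p = 0.00657 and 0.00819). Tfr2 rose on the ground by 0.29 (limma adjusted p = 0.0864), and Slc11a2 after flight by 0.25 (limma adjusted p = 0.0566). The flight changes of Tfrc (-0.76 and -0.87), Slc25a37 (-0.81 and -0.80) and Abcb10 (-0.77 and -0.81) passed the test in the same fit.

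**Figure D4:**
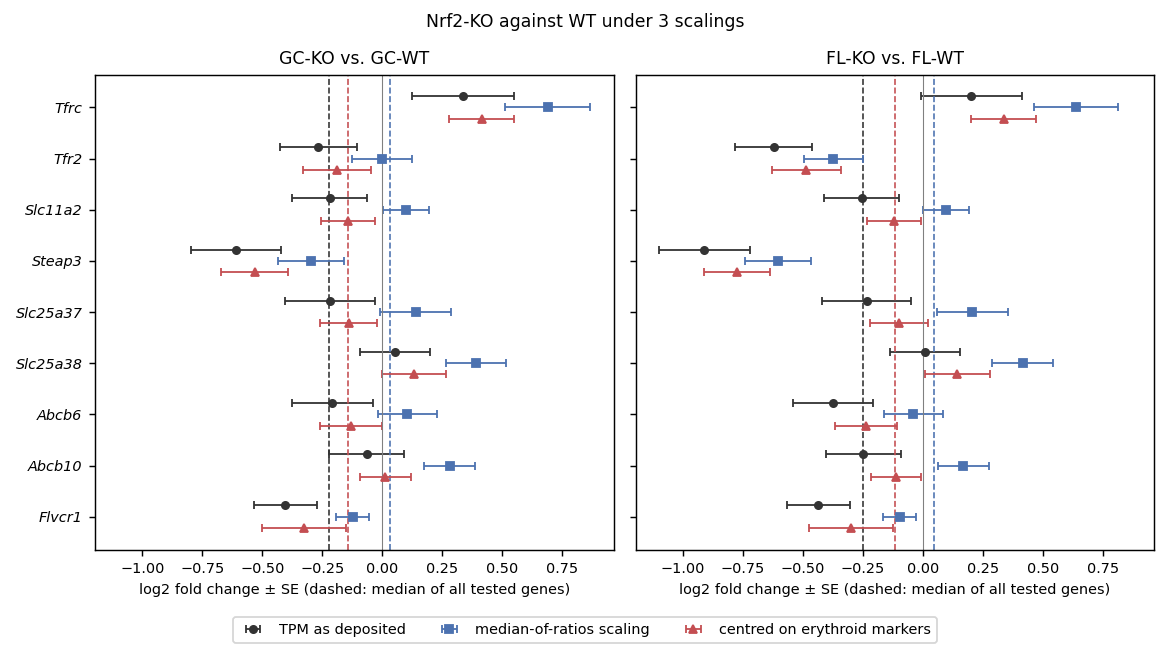
Log2 fold change of Nrf2-KO against wild-type mice (horizontal axis, points with SE) of each gene on the ground (left) and after flight (right) at the same 3 scalings as for flight, with the median of all tested genes as dashed lines. Steap3 lies to the left of the dashed line of its scaling and Tfrc to the right in both panels.

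The effect of flight was also tested for a difference between the genotypes. No member passed the interaction of flight and genotype in limma, with adjusted p of 1.0 for each, and 0 members had an unadjusted p under 0.05. Lower calls over all tested genes made up 0.0162%. Tfr2 (-0.35, SE 0.23) and Steap3 (-0.30, SE 0.27) had the lowest values, and that of Slc25a37 was -0.02 (SE 0.26).

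Ratios of related genes within a library do not depend on scaling, and 4 of them were compared with exact two-sided permutation tests, adjusted over 16 tests. Slc25a37 against its paralog Slc25a28 (mitoferrin 2, present in most tissues) shifted with flight in both genotypes. The ratio ranged from 19.1 to 46.2 (median 37.8) in GC-WT and from 15.9 to 19.7 (median 17.8) in FL-WT mice, and from 32.9 to 64.01 (median 45.2) in GC-KO and from 20.3 to 33.9 (median 26.1) in FL-KO mice. The log2 ratio fell by 0.95 in wild-type and by 0.78 in Nrf2-KO mice (exact permutation p = 0.00433 and adjusted p = 0.0173 for each), and 1 ground mouse in each genotype overlapped the flight mice. Slc25a28 itself had flight changes of -0.21 (SE 0.12, limma adjusted p = 0.175) and -0.35 (SE 0.12, limma adjusted p = 0.026). With the GC and length trend removed, the shifts were -0.92 (adjusted exact permutation p = 0.026) and -0.92 (adjusted exact permutation p = 0.0173). Reads shared by such paralogs are divided by the authors' estimate.

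Tfrc against Tfr2 shifted with genotype at TPM as deposited. The ratio was between 13.8 and 26.1 (median 17.4) in FL-WT mice and between 38.2 and 58.5 (median 40.01) in FL-KO mice, without overlap, and the log2 difference was 1.23 (exact permutation p = 0.00216, the smallest these groups allow, adjusted p = 0.0173). On the ground it was between 17.8 and 54.6 (median 23.3) in GC-WT and between 36.1 and 48.3 (median 41.1) in GC-KO mice, with a difference of 0.69 (exact permutation p = 0.026, adjusted p = 0.0693). When the GC and length trend was removed, the differences were 0.17 after flight and 0.16 on the ground (adjusted exact permutation p = 0.162 and 0.4). Without GC-WT mouse 10 the difference on the ground was 0.90 (adjusted exact permutation p = 0.0115). Slc25a37 against Slc25a28 was higher in FL-KO than in FL-WT mice by 0.54 (exact permutation p = 0.00216, adjusted p = 0.0173) and by 0.23 with the trend removed (adjusted exact permutation p = 0.162).

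The other ratio tests did not pass at TPM as deposited. Tfrc against Tfr2 differed with flight by -0.52 in wild-type (adjusted exact permutation p = 0.158) and by 0.03 in Nrf2-KO mice (adjusted exact permutation p = 0.847). The wild-type value passed at -0.65 with the trend removed (adjusted exact permutation p = 0.026) and at -0.63 with 1 added to each TPM (adjusted exact permutation p = 0.0445). The value in Nrf2-KO mice turned to -0.64 with the trend removed (adjusted exact permutation p = 0.0173) and to -0.42 with 1 added to each TPM (adjusted exact permutation p = 0.026). Abcb10 against Abcb6 ranged from 3.76 to 5.97 over all mice, with flight differences of -0.06 and -0.003 (adjusted exact permutation p = 0.779 and 0.97), and the first was -0.16 without FL-WT mouse 3 (adjusted exact permutation p = 0.0404). In Nrf2-KO mice this ratio passed at -0.19 with the trend removed (adjusted exact permutation p = 0.0485) and at -0.21 with 1 added to each TPM (adjusted exact permutation p = 0.0346). Slc25a37 against Slc25a38 differed by -0.27 and -0.24 with flight (adjusted exact permutation p = 0.226 and 0.211).

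**Figure D5:**
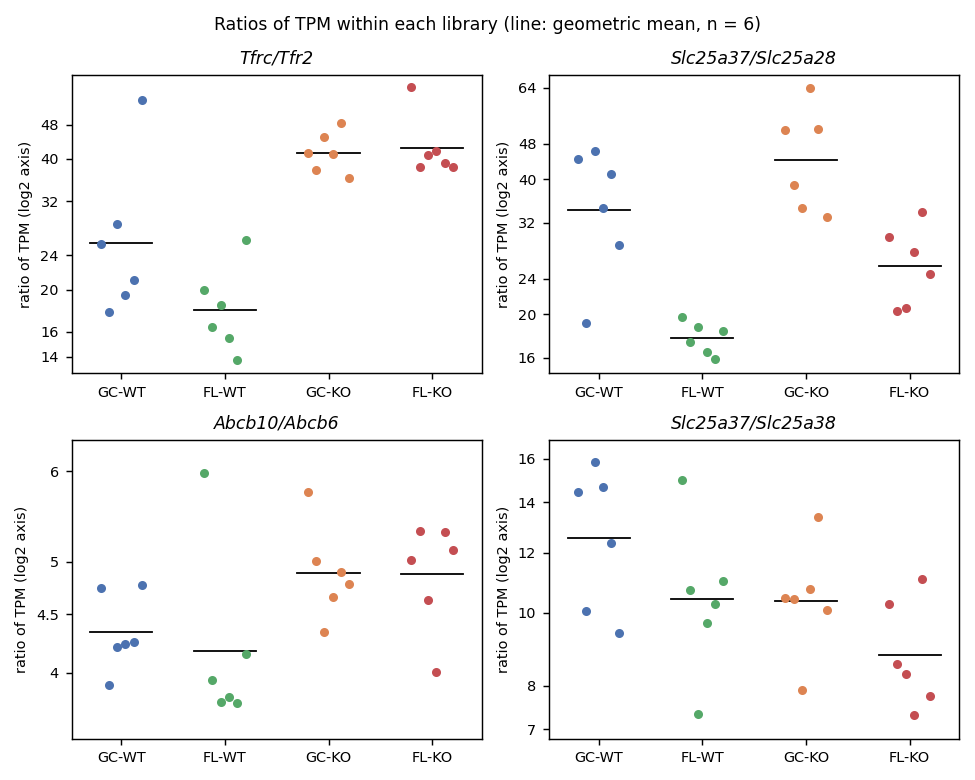
Ratio of TPM of the named genes within each library (vertical axis, log2 scale) for each mouse (points) by group, with the geometric mean as a line (n = 6). Tfrc/Tfr2 is higher in both KO groups than in FL-WT mice, Slc25a37/Slc25a28 is lower in flight than in ground mice of the same genotype apart from 1 overlapping ground mouse each, and the groups overlap for Abcb10/Abcb6.

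Genes whose mouse-to-mouse deviations were most like those of a member were named by Pearson's r over 24 libraries, after group means and the median deviation of each library were removed. The points share library composition, so r is a description. Tfrc was most like Abcg2 (r = 0.95), a transporter of heme and porphyrins, Cep76 (0.91) and Slc30a9 (0.90). Slc25a38 was most like Ift140 (0.88), Hebp1 (0.87), a heme-binding protein, and Glrx5 (0.87) of iron-sulfur assembly. Slc11a2 was most like Slc16a1 (0.90), Btnl10 (0.90) and the heme enzyme Cpox (0.87). Abcb6 was most like Ces2g (0.90), the erythropoietin receptor gene Epor (0.86) and Aqp1 (0.85). Abcb10 was most like Btnl10 (0.93), Apol8 (0.91) and Lpcat1 (0.90), and Slc25a37 like Specc1 (0.92), Ranbp10 (0.91) and Optn (0.91). Steap3 was most like Slc29a1 (0.91) and the DNA replication genes Cdc6 (0.90) and Rrm1 (0.90). The values were lower for Tfr2 (Mfsd2b, 0.82; Tbxas1, 0.76; Ache, 0.75) and Flvcr1 (Scpep1, 0.77; Ist1, 0.74; Sept6, 0.73).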

How the data were processed

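RNA of cryopreserved bone marrow cells was isolated by the authors with ISOGEN-LS and made into strand-marking libraries (MGIEasy). The authors sequenced these on the DNBSEQ-G400, mapped reads to mm10 (STAR 2.6.1) and obtained expression values by RSEM 1.3.1. These deposited values are TPM, summing to 999999.5 to 1000001.1 per library, with no counts, so that depth and counting error are unknown. The annotation release is not given in the sources used here. Gene IDs (54723 of 54752) were matched to GENCODE M21.

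Groups came from the sample labels. Log2 values of TPM + 1 were fitted in limma 3.58.1 (R 4.3.3) and a mean per group, over 12373 genes with a TPM above 1 in at least 1 library, with Benjamini-Hochberg adjustment over all of them. A called gene had a fold change of 2 or more at an adjusted p under 0.1, the study's thresholds. Log2 ratios of TPM within a library were tested with exact two-sided permutation tests, adjusted over 16 tests at 0.05. A member is described in every comparison. Of each list, the 2 lowest genes and the highest gene in a flight comparison may be named. Genes most like a member had a mean of at least 5 TPM, and the 3 with the highest r were named. The members and lists were chosen with earlier results of these data known.

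Alternatives changed the pseudocount (0.1), dropped the filter or required 6 libraries above it, and rescaled the libraries by median-of-ratios scaling, quantile normalization, leaving out 5 small RNAs, or centring on 12 erythroid markers. Further ones were a mean-expression trend, the compared groups only, an adjusted p under 0.05, no minimum fold, the mouse number as a block, removal of the trend with GC content and length (spline with 5 degrees of freedom), and each library left out in turn. The ratios after trend removal were added after the data were seen. Ahsp, of the globin list, was not matched. Some genes of the erythroid list are not reported here by name. The fit was tested on simulated data. Tables and permutation tests were made in Python 3.11.15 (pandas 2.3.3, numpy 2.4.6) and figures with matplotlib 3.10.9.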

Additional observations from a re-analysis of the deposited data

How the results depend on the processing

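Counts of members called in FL-WT vs. GC-WT (3) became 5 with a pseudocount of 0.1 or without the 5 small RNAs. They became 0 with median-of-ratios scaling or the GC and length trend removed, and 1 with quantile normalization (Slc25a37). With no minimum fold 8 were called, where 39% of tested genes fell, and with a library left out 2 to 5. Shares of all tested genes were not counted with a pseudocount of 0.1, quantile normalization or the small RNAs left out. The 6 in FL-KO vs. GC-KO became 7 with a pseudocount of 0.1, where Tfr2 was called as well, and 4 without the 5 small RNAs. They became 0 with median-of-ratios scaling, quantile normalization or the trend removed. With no minimum fold 8 were called, where 53.1% of tested genes fell, and with a library left out 5 to 6. Centred on erythroid markers, 0 members were called lower in either comparison, and the 1 called in each was Flvcr1, as higher. With no minimum fold, the comparison of genotypes gave 2 called members on the ground and 4 after flight, where 42.9% and 47.2% of tested genes fell. In the comparison after flight, a pseudocount of 0.1 gave 1 called member and leaving out a library 0 to 1. The cause of these shifts was not tested.

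The labels number the mice but do not say that equal numbers form pairs, and the values do not settle it. After group means were removed, r between same-numbered mice was -0.026 to 0.273 and above 0.1 for 7 of 12 pairs. Of the 12 mice, 3 were most like their own number. Taking the number as a block lowered the SE of each member's flight change, for Tfrc from 0.21 to 0.12 and for Flvcr1 from 0.13 to 0.11. With the replicate block, 3 and 6 members were called for flight, 0 for the interaction, and 0 and 0 for flight when the GC and length trend was also removed. For the ratios the block (64 sign flips within pairs) was run on the 8 flight tests only. It gave 0 past the threshold in place of 2, with adjusted p of 0.0833 for Slc25a37/Slc25a28 in both genotypes, whose p of 0.03125 is the smallest these flips allow. Of all 16 ratio tests 4 passed, a pseudocount of 1 gave 8, and leaving out a library 4 to 6.

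Directions turned for these log2 fold changes. With centring on erythroid markers, values that turned were, for FL-WT vs. GC-WT Tfrc (0.11), Tfr2 (0.75), Slc11a2 (0.18), Steap3 (0.35), Slc25a38 (0.28), Abcb6 (0.22), Abcb10 (0.033), Flvcr1 (1.03), for FL-KO vs. GC-KO Tfrc (0.035), Tfr2 (0.45), Slc11a2 (0.20), Steap3 (0.10), Slc25a38 (0.30), Abcb6 (0.11), Flvcr1 (1.05), for GC-KO vs. GC-WT Abcb10 (0.012). With median-of-ratios scaling they were, for GC-KO vs. GC-WT Slc11a2 (0.098), Slc25a37 (0.14), Abcb6 (0.10), Abcb10 (0.28), for FL-KO vs. FL-WT Slc11a2 (0.097), Slc25a37 (0.21), Abcb10 (0.17), for FL-WT vs. GC-WT Flvcr1 (0.15), for FL-KO vs. GC-KO Flvcr1 (0.17). With quantile normalization they were, for GC-KO vs. GC-WT Tfr2 (0.049), Slc11a2 (0.13), Abcb6 (0.14), Abcb10 (0.18), for FL-KO vs. FL-WT Slc11a2 (0.18), Slc25a37 (0.074), Abcb6 (0.047), Abcb10 (0.19), for FL-WT vs. GC-WT Flvcr1 (0.17), for FL-KO vs. GC-KO Flvcr1 (0.23). With the GC and length trend removed they were, for GC-KO vs. GC-WT Tfr2 (0.29), Slc11a2 (0.21), Slc25a37 (0.22), Abcb6 (0.28), Abcb10 (0.45), for FL-KO vs. FL-WT Tfr2 (0.16), Slc11a2 (0.25), Slc25a37 (0.23), Abcb6 (0.27), Abcb10 (0.41), for FL-WT vs. GC-WT Flvcr1 (0.18), for FL-KO vs. GC-KO Flvcr1 (0.18). With the trend removed and the replicate block they were, for FL-WT vs. GC-WT Flvcr1 (0.18), for FL-KO vs. GC-KO Flvcr1 (0.18). Without the 5 small RNAs it was, for GC-KO vs. GC-WT Slc25a38 (-0.059). The Tfrc/Tfr2 ratio in FL-KO vs. GC-KO turned to -0.039 and -0.42 with pseudocounts of 0.1 and 1, to -0.64 with the trend removed, and ranged from -0.060 to 0.079 with a library left out. Other ranges with a library left out that crossed 0 were -0.037 to 0.11 (Slc25a38) and -0.16 to 0.0095 (Abcb10) in GC-KO vs. GC-WT, -0.084 to 0.097 (Slc25a38) in FL-KO vs. FL-WT, and -0.037 to 0.054 (Abcb10/Abcb6) in FL-KO vs. GC-KO. TPM carry no counts, so what depth limits at the few TPM of Tfr2 and Flvcr1 is unknown.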

Other observations

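Single mice stood at the edge of their group for many of the 9 genes at once. FL-WT mouse 7 had the highest level of 7 members in its group and a summed TPM of 602 for the 12 erythroid markers, the highest of the FL-WT mice. FL-WT mouse 5 had the lowest level of 5 members, the lowest erythroid sum of that group (351) and the highest share of the 5 small RNAs (59.6%). Among FL-KO mice, mouse 9 was the highest for 7 members with an erythroid sum of 572, and mouse 2 the lowest for 6 with a sum of 359 and 59.3% of small RNAs. Among GC-KO mice, mouse 11 was the highest for 6 members with an erythroid sum of 1512, and mouse 4 the lowest for 6 with a sum of 785. GC-WT mouse 8 was the highest for 6 members with an erythroid sum of 1416, below the 1527 of GC-WT mouse 6, and GC-WT mouse 5 the lowest for 5 with an erythroid sum of 721.02 and 58.2% of small RNAs. These values are descriptions, and the part of cell composition or of the small RNAs in them was not tested.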
